A study of Rattus norvegicus with 28 samples.

Results

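Narrow accessible regions of the rat dorsal root ganglion (DRG) are the consensus ATAC-seq regions on chr1 to chr20 whose end lies at most 250 bp beyond their start. The rule used width alone, and it found 3935 narrow regions among 55844 autosomal regions, or 7.05%, out of 56810 regions in all. The remaining 51909 autosomal regions served as the background. The libraries came from adult male Sprague-Dawley rats of 12 weeks, with the ipsilateral L4–L6 DRGs of 1 rat in each. There were 6 libraries from rats with chronic constriction injury (CCI), a loose ligation of the sciatic nerve that models neuropathic pain, taken 14 days after surgery. A further 6 came from rats injected in the hind paw with complete Freund's adjuvant (CFA), an emulsion that models inflammatory pain, taken after 48 h, and 3 came from naïve rats with neither treatment. Rats of both models that did not develop mechanical hypersensitivity were not used by the authors. The CCI libraries are numbered here by the replicate number in their sample titles, which differs from the number in the deposited column names. The 2 CFA columns whose names carry no clear replicate number are called CFA a and CFA b.

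ATAC-seq marks open chromatin by letting the Tn5 transposase insert sequencing adapters where DNA is not wrapped around nucleosomes. Accessible stretches include promoters, which tend to be broad and strongly open, and distal elements such as enhancers, where short open stretches can lie between positioned nucleosomes. The DRG holds the cell bodies of sensory neurons together with satellite glia, Schwann cells and immune cells. A value per region is therefore a mean over cell types, and fewer cells of a type cannot be told apart from less open chromatin per cell. The tissue label was checked in the 2 CFA RNA-seq libraries, in which the neurofilament genes Nefl and Nefm reached 9561 and 11574 CPM, the counts scaled to the library total, in CFA RNA 1 and 9790 and 11586 in CFA RNA 2. The nociceptor genes P2rx3, an ATP-gated channel, and Scn11a, a sodium channel, stood at 497 and 349 CPM in CFA RNA 1 and at 462 and 375 in CFA RNA 2, so sensory neuron transcripts were present. No other cell type was checked.

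Widths of the narrow regions ran from 149 to 250 bp with a median of 221 bp, and the middle part of the distribution lay between 202 and 237 bp. Together they covered 853.4 kb, against 35209 kb in the other autosomal regions, whose median width was 578 bp. Insertion sites had been extended by 75 bp each way before peak calling, so 149 bp is close to the width that a single extended site can give. Exactly 149 bp was the width of 19 regions on 10 chromosomes. On every autosome narrow regions were found, and their share ranged from 5.20% of the regions of chr12 to 8.14% of those of chr4.

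Narrow regions lay nearer to another accessible region than the rest. The distance to the next region had a median of 7.56 kb for narrow and 8.51 kb for other autosomal regions. Of the narrow regions 752, or 19.1%, had another region within 1 kb, compared with 14.6% of the others, and 39.8% had one within 5 kb, compared with 33.7%. Distances above 100 kb were also somewhat more frequent, at 4.19% of narrow and 3.33% of other regions. The nearest neighbour of a narrow region was itself narrow in 7.29% of cases, close to the 7.43% among the others. Regions of one consensus set share their peak calls, so these shares are a description of the set.

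Accessibility of the narrow regions in naïve DRG was low. All levels are the deposited log2 normalized coverage of a whole region, and the CCI and CFA tables were normalized separately, so values are compared within a table only. In the CCI table the mean over the 3 naïve libraries had a median of 4.30 across narrow regions, with quartiles of 4.01 and 4.67, and a median of 5.54 across the others. In the CFA table the medians were 4.49 and 5.81. Below the lower quartile of all regions lay 79.3% of the narrow regions in either table, and only 138 of them, or 3.51%, exceeded the median of the others. Peak width was called from the same reads as the level, so the relation of width to level is no test and no p-value is given.

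Per length the difference in level largely disappeared. On the scale of log2 coverage per 100 bp, the narrow regions had a median naïve level of 3.19 and the others of 3.08 in the CCI table, and of 3.39 and 3.35 in the CFA table. The quartiles overlapped widely, at 2.91 to 3.56 for narrow and 2.67 to 3.67 for other regions in the CCI table. Within the narrow class the whole-region level rose with width, from a median of 4.18 at 149 to 175 bp to 4.38 at 226 to 250 bp in the CCI table. Around the limit of the rule nothing broke off. The 70 regions of exactly 250 bp had median naïve levels of 4.47 in the CCI table and 4.67 in the CFA table, and the 79 regions that were 1 bp wider had 4.49 and 4.69.

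**Figure D1:**
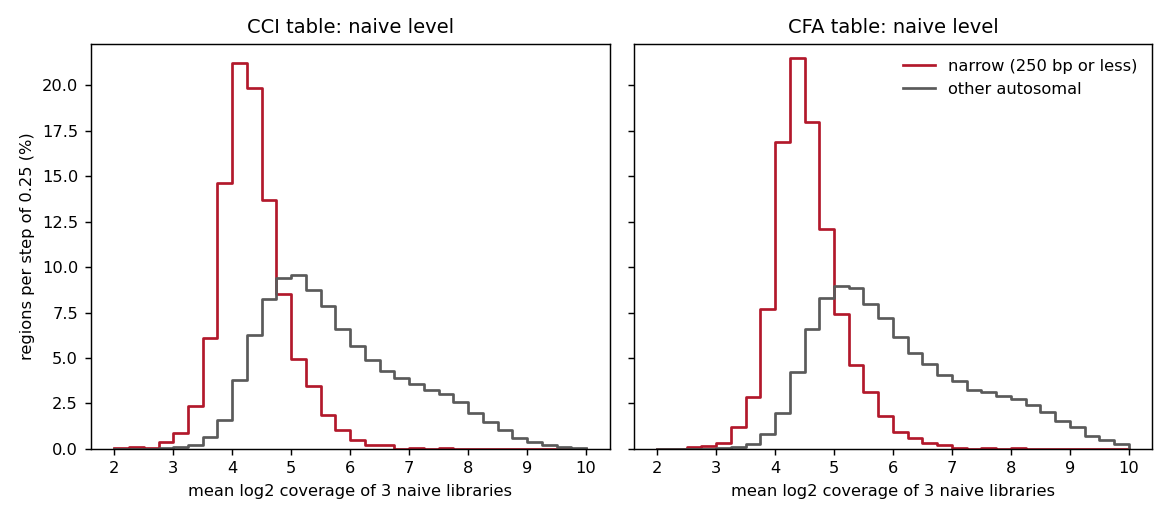
Share of regions (y axis, percent per step of 0.25) by mean log2 normalized coverage of the 3 naïve libraries (x axis) in the CCI table (left) and the CFA table (right), for narrow regions (red) and other autosomal regions (grey). The narrow regions form 1 peak around their medians of 4.30 and 4.49, while the others spread to higher levels around 5.54 and 5.81.

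The highest narrow level in naïve rats was found at chr14:46653669-46653873, a region of 204 bp whose next neighbour was 0.308 kb away, with 7.86, 7.22 and 7.48 in the 3 naïve libraries of the CCI table. Next came chr1:11911631-11911856, 225 bp wide, with 7.38, 7.04 and 7.20. The third was chr16:22016246-22016446, 200 bp wide, with 6.64, 6.67 and 6.82. All 3 were far above the narrow median in every naïve library. The lowest level belonged to chr2:246611-246852, with 3.49, 0.62 and 2.62, and the next lowest to chr2:20095922-20096121, with 2.62, 2.08 and 2.31. The first of these varied widely between naïve rats, so its mean of 2.25 ± 1.47 (SD, n = 3) is poorly determined.

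The 3 naïve libraries differed more at narrow regions than elsewhere. The SD of a region over the naïve libraries had a median of 0.31 log2 units for narrow and 0.19 for other autosomal regions in the CCI table, and of 0.32 and 0.21 in the CFA table. An SD above 0.5 was seen in 21.1% of narrow and 6.64% of other regions in the CCI table. The pain models showed the same order, with a median SD over 6 libraries of 0.42 against 0.31 after CCI and of 0.34 against 0.23 after CFA. Both classes became less variable as the level rose from 3.5 to 6. At 6 or more the SD of narrow regions after CCI was 0.55, above the 0.33 of the band from 5.5 to 6. Their naïve SD in the CCI table was 0.18 there, against 0.17. In the band of levels from 4 to 4.5, where 1814 narrow and 5160 other regions of the CCI table lay, the naïve SD was 0.32 for narrow and 0.36 for other regions. In the band from 5 to 5.5, with 262 and 9802 regions, it was 0.21 and 0.22. The naïve SD of narrow regions was below that of the others in all 4 bands between 4 and 6, in either table. It was above that of the others in the remaining bands, with 0.44 against 0.42 at 3.5 to 4 and 0.18 against 0.13 at 6 or more in the CCI table, and 0.47 against 0.45 and 0.18 against 0.15 in the CFA table. Below 3.5, a band with only 55 narrow and 16 other regions in the CCI table, it was 0.71 against 0.48.

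The values came in coarse steps, and narrow regions lay on low ones. Values within a library repeat, and counting the distinct values upwards from the lowest, the median narrow region held the step 22 to 25 in the 3 naïve libraries, against 53 to 61 for the others. After CCI the median narrow region lay on step 15 to 24 in the 6 libraries and after CFA on step 18 to 25. The true depth of a library is unknown from normalized values, so no counting interval is given.

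A range of more than 2 log2 units between the 6 CCI libraries was seen at 177 narrow regions, or 4.50%, and at 1.32% of the others. For CFA the counts were 66 narrow regions, or 1.68%, and 0.335% of the others. Ranges above 4 occurred at 6 narrow regions after CCI and at none after CFA.

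**Figure D2:**
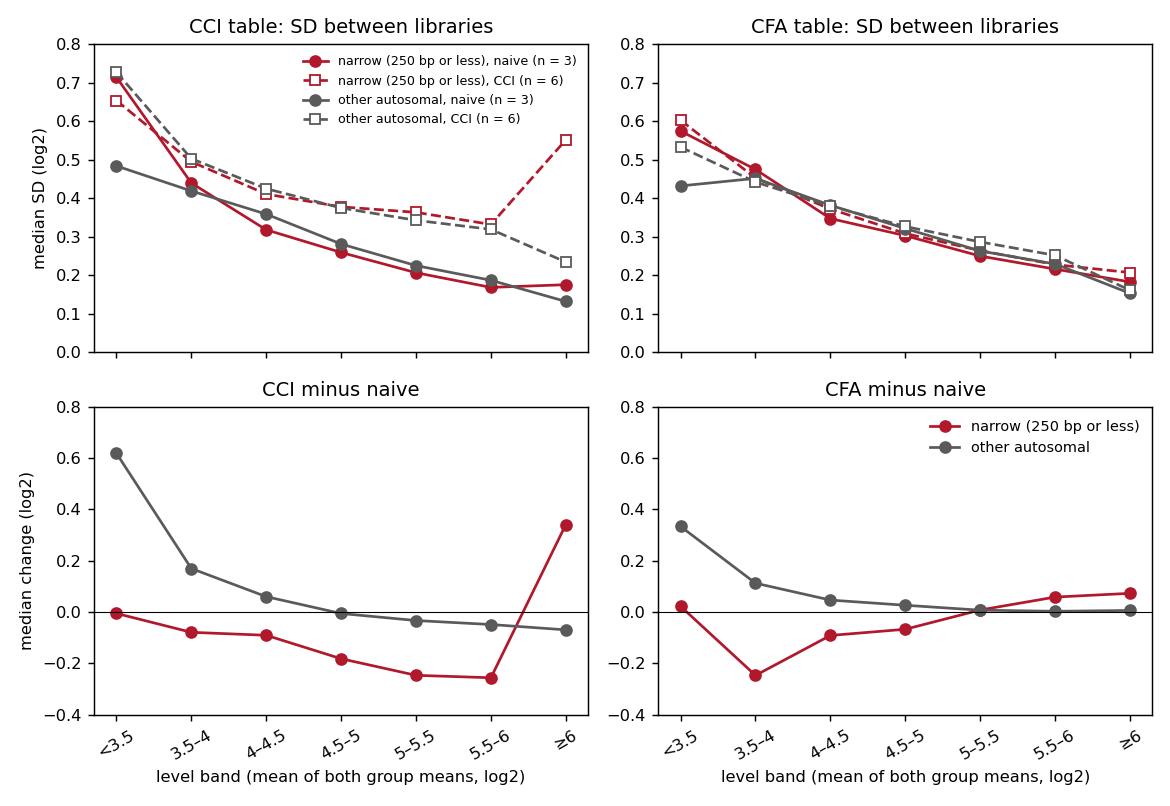
Median SD between libraries (top) and median log2 change of the pain model against naïve (bottom) in bands of level (x axis, mean of both group means, log2), for narrow (red) and other autosomal regions (grey) in the CCI table (left) and CFA table (right). Filled circles in the top panels are the 3 naïve libraries and open squares the 6 libraries of the model. The lowest band holds only 16 other regions in the CCI table and 30 in the CFA table, and the highest band holds 28 narrow regions in the CCI table, where their SD after CCI is 0.55 against 0.23.

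To determine how nerve injury altered narrow regions, the 6 CCI libraries were compared with the 3 naïve libraries. Narrow regions were on the whole lower after CCI, with a median log2 change of −0.12 compared with −0.04 in the other autosomal regions. A value below 0 was found for 62.7% of narrow and 54.8% of other regions. The change of single narrow regions was between −0.35 and 0.15 for the middle part of them, so the shift of the median was small beside their spread. By library the median difference of narrow regions from the naïve mean was −0.05, −0.11, −0.09, −0.09, 0.00 and −0.13 in CCI 1 to CCI 6. CCI 5 thus showed no shift, and the medians of the 6 libraries, 4.27 to 4.37, overlapped those of the naïve libraries, 4.34 to 4.37. The means over narrow regions, by contrast, were 4.26 to 4.35 in the CCI and 4.36 to 4.38 in the naïve libraries and did not overlap. The highest of the CCI libraries, CCI 5 with 4.3519, still came close to the lowest naïve one with 4.3599. Since all libraries of a table share nearly one distribution of values, a lower mean at narrow regions goes with a higher mean elsewhere, and an absolute change of accessibility cannot be told apart from a redistribution.

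Narrow regions were on the whole lower than the others after CFA as well. The median change of narrow regions was −0.07, compared with 0.01 in the others, and 57.3% and 48.4% of regions were below 0. By library the medians were −0.04 in CFA a, −0.06 in CFA b, 0.01 in CFA 3, −0.02 in CFA 4, −0.02 in CFA 5 and −0.07 in CFA 6. The means over narrow regions were 4.50 to 4.56 in the CFA libraries and 4.56 to 4.59 in the naïve libraries of that table. As after CCI, the highest CFA library, with 4.5570, came close to the lowest naïve one, with 4.5648, without overlap. Both models were compared with the same 3 naïve libraries, and the shifts are therefore not independent of each other. When regions below the lower quartile of level were removed, the median CFA change of the narrow regions left was 0.06, with the sign turned.

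The narrowest regions had the lowest values relative to naïve. From 149 to 175 bp, a class of 325 regions, the median change was −0.19 after CCI and −0.20 after CFA. From 176 to 200 bp it was −0.14 and −0.12, from 201 to 225 bp −0.11 and −0.05, and from 226 to 250 bp −0.10 and −0.02. Just beyond the rule, in the class up to 300 bp, the medians were −0.05 and 0.04, so the values continued the same course across the limit. The course did not hold up to the widest regions. From 801 to 5000 bp the medians were lower again, at −0.07 after CCI and −0.04 after CFA. The 19 regions of 149 bp had medians of −0.14 after CCI and −0.07 after CFA.

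The change also differed between bands of level. After CCI, narrow regions in the bands from 4.5 to 5, 5 to 5.5 and 5.5 to 6 had median changes of −0.18, −0.25 and −0.26, whereas other regions of the same bands had −0.01, −0.03 and −0.05. After CFA the narrow regions of these bands had −0.07, 0.01 and 0.06, and the other regions 0.03, 0.01 and 0.00. The lowest CFA value was found at lower levels, since 497 narrow regions from 3.5 to 4 had a median change of −0.25, with 67.4% of them below 0, against 0.11 in the others. After CCI the narrow regions of that band had −0.08 and the others 0.17. Median changes of narrow regions were below 0 on 20 of 20 autosomes after CCI, from −0.27 on chr10 to −0.03 on chr9. After CFA they were below 0 on 18 of 20, from −0.13 on chr4 to 0.08 on chr12.

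Distance to the next accessible region separated the narrow regions in the CCI table. The 526 narrow regions with another region within 500 bp had a median change of −0.32 after CCI, and 77.6% of them were below 0. Other autosomal regions with a neighbour that close, 5079 in number, had a median of −0.10. Narrow regions with the next region 0.5 to 1 kb away had a median of −0.14, and those 20 to 100 kb away of −0.08. In each of the 6 CCI libraries the narrow regions with a neighbour within 500 bp were lower than the remaining narrow regions, with medians of −0.10, −0.22, −0.38, −0.34, −0.22 and −0.32 in CCI 1 to CCI 6 against −0.04, −0.09, −0.06, −0.06, 0.04 and −0.10. After CFA the narrow regions with a close neighbour had a median of −0.09, and the lowest median of that table, −0.23, was that of the 165 narrow regions more than 100 kb from the next.

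Of the narrow regions with a neighbour within 500 bp, 479 had a wider region as that neighbour, with a median width of 596 bp. The narrow one of the pair was lower in naïve level in 463 pairs, with medians of 4.74 and 5.85 in the CCI table. Its CCI change was the lower of the pair in 332 pairs, or 69.3%, with medians of −0.33 for the narrow and −0.08 for the wider region. Its CFA change was the lower one in 271 pairs, or 56.6%. Across the pairs the changes of both regions had a Pearson r of 0.64 for CCI and 0.42 for CFA. These pairs share libraries and neighbouring DNA, so r is a description only.

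**Figure D3:**
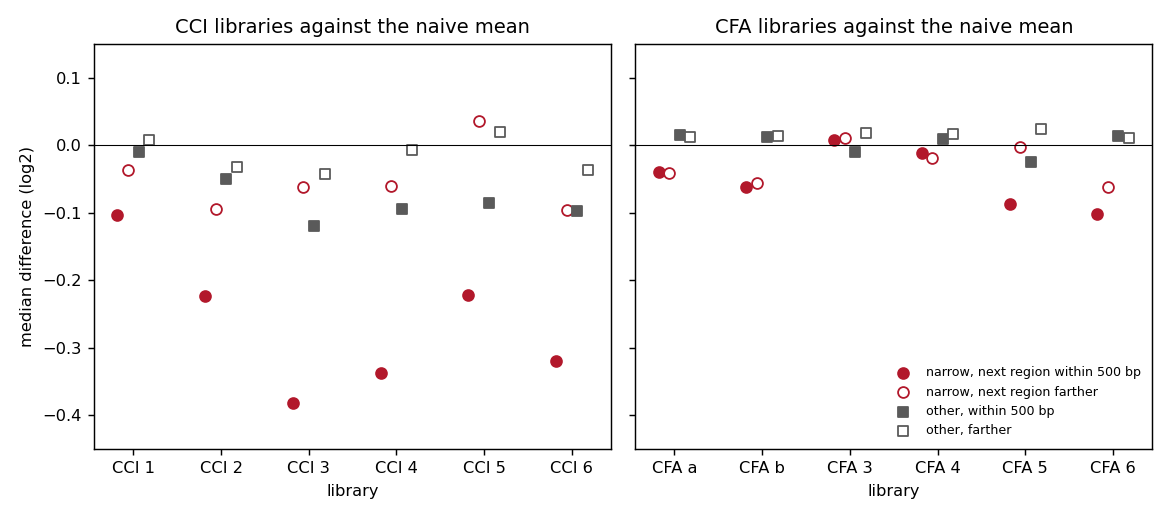
Median log2 difference of each CCI library (left) and CFA library (right) from the naïve mean of its table (y axis), for narrow regions (red circles) and other autosomal regions (grey squares) with the next region within 500 bp (filled) or farther away (open). In all 6 CCI libraries the filled red circle is the lowest of the 4 points, from −0.10 in CCI 1 to −0.38 in CCI 3, while the CFA libraries stay between −0.10 and 0.02.

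Single narrow regions were then tested with limma, a linear model per region fitted on the whole table, at the authors' threshold of an unadjusted p below 0.001. After CCI, 26 narrow regions gained and 12 lost accessibility, which is 0.661% and 0.305% of the narrow regions. The background over all regions was 0.75% gained and 0.16% lost. After CFA, 27 narrow regions gained and 15 lost accessibility, or 0.686% and 0.381%, where the background was 0.565% and 0.556%. The shares of narrow regions gained were near the background in both comparisons. After Benjamini-Hochberg adjustment over the whole table no narrow region had an adjusted limma p below 0.05 in either comparison (background 0.0158% and 0.0%), while at an unadjusted p below 0.05 there were 624 after CCI, or 15.9%, and 638 after CFA, or 16.2%, against backgrounds of 16.0% and 18.9%. With a variance prior that follows the level, the counts fell to 19 gained and 4 lost after CCI and to 15 and 3 after CFA, below the shares of the other regions in each case. The number lost after CCI depended on single libraries, with 23 without CCI 1, 7 without CCI 4 or without CCI 6, 2 without Naive 1 and 3 without Naive 2 or without Naive 3. The number gained after CCI was 54 without CCI 1, 16 without Naive 1 and 17 without Naive 3, and CFA counts became 17 gained and 23 lost without CFA 3.

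The groups were also compared by whether their libraries overlapped. All 6 CCI libraries were above all 3 naïve libraries at 92 narrow regions, or 2.34%, and below them at 140, or 3.56%, against backgrounds of 3.85% and 5.26%. For CFA the counts were 101 above, or 2.57%, and 127 below, or 3.23%, against 5.39% and 5.65%. Separation of the groups was thus less frequent among narrow regions than among all regions, in both directions and both models. The limma share lost after CCI, 0.305%, was above its background of 0.16%, and the share gained after CFA was near its background. With the variance prior that follows the level, both were below the other regions. They were 0.102% against 0.441% lost after CCI and 0.381% against 2.27% gained after CFA.

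Gained and lost narrow regions started from different levels. The 26 regions gained after CCI had a median naïve level of 3.46 and changes of 0.89 to 2.09 with a median of 1.10. The 12 lost after CCI had a median naïve level of 4.94 and a median change of −0.97. After CFA the 27 gained regions had a median naïve level of 3.80 and a median change of 0.84, and the 15 lost ones 4.44 and −0.89. Regions were kept by the authors if called in enough samples of a group, so a region low in naïve rats could enter the set through a pain model in which it was high. Naïve level and change share the naïve libraries, so their order is a description.

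Called in both comparisons in the same direction were 2 narrow regions, or 0.0508%, where the background over all regions was 0.0546%, and both lost accessibility. The first, chr1:92513274-92513499, was assigned by the authors to Tshz3, a zinc finger homeobox transcription factor, as its nearest gene. Tshz3 lies far from the region, and the paper lists no significant change of its expression in either model. The values of the region were 4.26, 3.997 and 4.26 in the naïve libraries. In CCI 1 to CCI 6 they were 3.03, 3.72, 3.03, 3.31, 2.82 and 3.11. Every CCI library was below every naïve one. The change was −1.004 ± 0.20 (SE) with a limma p of 0.000272, an adjusted p of 0.0989 and a two-sided exact permutation p of 0.0119, which is the smallest that 6 against 3 libraries can give. In the CFA table it held 4.43, 4.18 and 4.44 in the naïve libraries and 3.18, 3.72, 3.18, 3.33, 3.01 and 3.62 in CFA a, CFA b and CFA 3 to CFA 6. That is a change of −1.01 ± 0.17 (SE) with a limma p of 8.9e-05, again without overlap.

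The second region lost in both, chr19:34760039-34760205, is 166 bp wide and was assigned to Nr3c2, the gene of the mineralocorticoid receptor. For Nr3c2 too the paper lists no significant change of expression in either model. The region stood at 5.94, 5.71 and 5.72 in the naïve libraries and at 5.47, 4.53, 4.81, 4.73, 4.99 and 4.60 in the CCI libraries. CCI 1 was the highest of the 6 and still below the naïve range. The change was −0.94 ± 0.21 (SE), limma p = 0.000718, adjusted p = 0.105. In the CFA table the naïve values were 6.26, 5.996 and 6.01 and the CFA values 5.67, 5.51, 5.36, 5.36, 5.29 and 5.49, a change of −0.64 ± 0.13 (SE) with a limma p of 0.000323. Both models use the same naïve rats here, and a call in both does not rest on separate controls. The CCI call at this region held in only 1 of the 9 fits that leave out a library, and that at the chr1 region in 7. With the variance prior that follows the level, the chr1 region missed the threshold in both models. Its limma p was then 0.00797 after CCI and 0.00422 after CFA, while the chr19 region had 0.000629 and 0.000931.

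Regions gained after CCI were led by chr11:22289440-22289687, which is isolated, with 453.995 kb to the next region. It had 2.82, 2.55 and 3.12 in the naïve libraries and 4.55, 4.67, 4.09, 4.79, 3.71 and 4.37 in the CCI libraries. The groups did not overlap, and the change of 1.53 ± 0.24 (SE) had a limma p of 3.38e-05 and an adjusted p of 0.0761. The same region after CFA changed by 0.31 ± 0.19 (SE), with an unadjusted limma p of 0.136. Next in p were chr8:15608404-15608615, with a naïve mean of 2.79 ± 0.41 (SD, n = 3) and a CCI mean of 4.29 ± 0.38 (SD, n = 6), chr13:19406606-19406795, with 3.08 ± 0.46 and 4.55 ± 0.35, and chr2:1311123-1311351, with 3.70 ± 0.27 and 5.06 ± 0.39. All 4 began below the narrow median and ended near or above it, and each kept an unadjusted limma p below 0.001 in 9 of 9 fits that left out a library.

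Regions lost after CCI with the smallest p included, beside the chr1 region, 3 that lay within 1 kb of another region. At chr10:62034792-62035029, which has its neighbour 0.412 kb away, the naïve values were 5.50, 5.74 and 5.56 and the CCI values 4.37, 5.17, 4.53, 4.73, 4.58 and 4.18. The change of −1.01 ± 0.21 (SE) had a limma p of 0.000349. At chr8:67983157-67983393, with 0.169 kb to its neighbour, the mean went from 4.996 ± 0.33 (SD, n = 3) to 3.99 ± 0.30 (SD, n = 6). At chr6:129280852-129281025 it went from 4.54 ± 0.05 to 3.60 ± 0.33. Groups did not overlap at any of the 3, but their calls held in only 6, 5 and 4 of the 9 fits that left out a library.

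The smallest p-value of any narrow region was found after CFA at chr8:55135611-55135765, a region of 154 bp. Its naïve values of 2.71, 3.04 and 3.18 contrasted with 3.97, 4.57, 4.37, 4.40, 4.70 and 4.49 in the CFA libraries. The groups were well apart, and the change of 1.44 ± 0.17 (SE) had a limma p of 3.78e-06, an adjusted p of 0.0858 and an exact permutation p of 0.0119. After CCI the region reached 2.82 to 3.95, overlapping the naïve range of 2.55 to 2.99 in that table, with an unadjusted limma p of 0.0427. Also gained after CFA were chr12:24232652-24232886, from 4.04 ± 0.24 (SD, n = 3) to 5.29 ± 0.27 (SD, n = 6), chr11:62555194-62555436, from 3.28 ± 0.09 to 4.34 ± 0.24, and chr20:46975034-46975280, from 3.76 ± 0.09 to 4.89 ± 0.28. In each of these 4 regions the limma p stayed below 0.001 whichever library was left out. Under the variance prior that follows the level, the limma p was 7.44e-06 at the chr12 region but 0.00108 at the chr11 region, just above the threshold.

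Among regions lost after CFA, chr10:59726038-59726187 is one of the 19 regions of 149 bp. It had 4.50, 4.43 and 4.58 in the naïve and 3.87, 3.47, 3.85, 3.84, 3.72 and 3.62 in the CFA libraries, a change of −0.77 ± 0.12 (SE) with a limma p of 6.33e-05. Naïve and CFA values were separated and tight. Its limma p was 0.0116 under the variance prior that follows the level, which missed the threshold. At chr6:75810314-75810543 the mean fell from 4.07 ± 0.41 (SD, n = 3) to 2.89 ± 0.30 (SD, n = 6), and at chr17:51921761-51921926 from 4.29 ± 0.13 to 3.47 ± 0.22. The chr17 region had a limma p of 0.0139 under that prior. In the CCI table the region of 149 bp had a difference of −0.90 ± 0.25 (SE) with a limma p of 0.00357, which missed the threshold. The other two had differences of 0.15 and −0.07, with unadjusted limma p of 0.618 and 0.723.

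**Figure D4:**
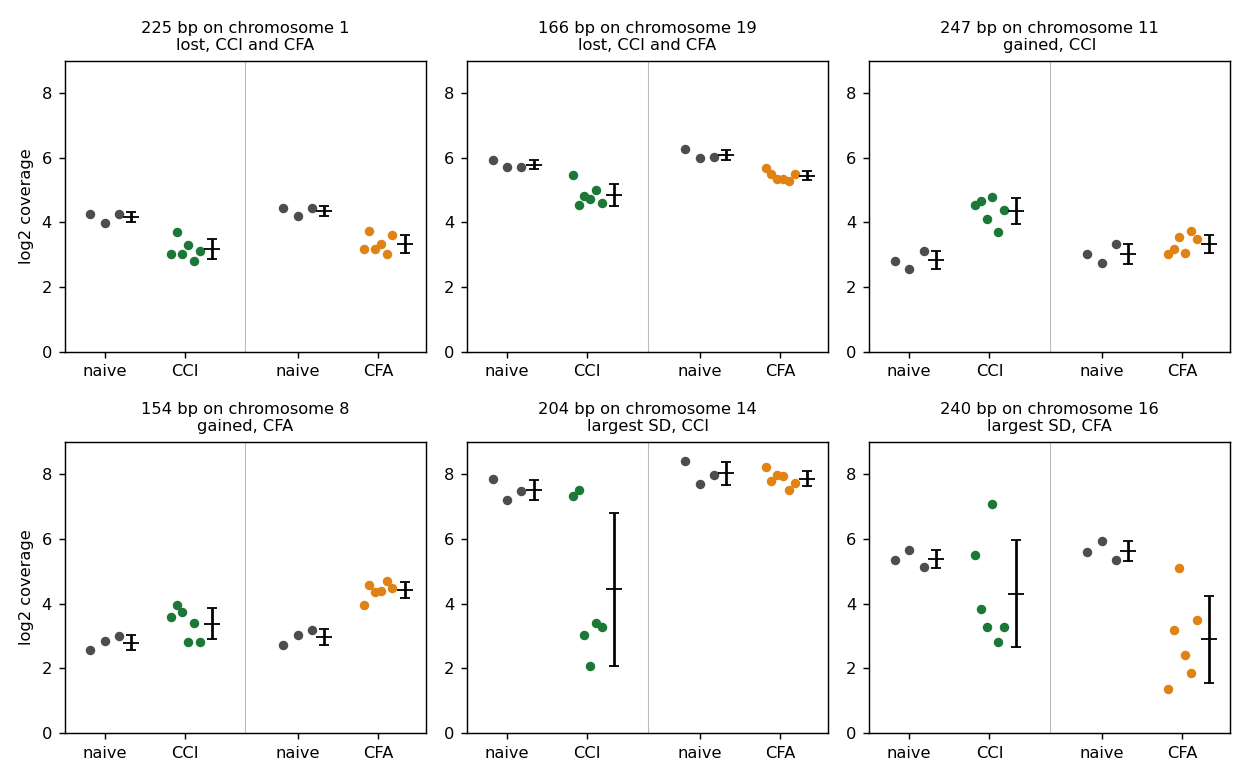
Log2 normalized coverage (y axis) of 6 narrow regions in each library, with the CCI table left and the CFA table right of the line in each panel. Points are libraries (grey naïve, green CCI, orange CFA) and bars give the mean and SD. The regions on chromosomes 1 and 19 are lower in both models, those on chromosomes 11 and 8 are higher in 1 model, and on chromosomes 14 and 16 the libraries of a model lie far apart.

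At the most variable narrow regions the libraries of a pain model lay far apart. The region with the highest naïve level, chr14:46653669-46653873, had 7.34 and 7.51 in CCI 1 and CCI 2 but 3.03, 2.08, 3.39 and 3.28 in CCI 3 to CCI 6. CCI 1 and CCI 2 matched the naïve range, whereas the other 4 lay far below it. The change of the group mean, −3.08 ± 1.08 (SE), had an unadjusted limma p of 0.0142 and an exact permutation p of 0.107. In the CFA table all 9 libraries were high, between 7.53 and 8.42. Sequencing moved with this split, since CCI 1, CCI 2, all CFA and all naïve libraries were sequenced in 2 runs and CCI 3 to CCI 6 in 1, and the run number and the split cannot be told apart.

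On the same stretch of chr14, 3.08 kb from its own nearest neighbour, the CCI libraries were split in another way at chr14:46660563-46660806. That region had 2.31, 2.85 and 3.12 in the naïve libraries and 3.23, 6.02, 4.67, 0.51, 5.12 and 5.64 in CCI 1 to CCI 6. CCI 4 thus lay below the naïve range and all others above. At narrow regions in general the 4 libraries of 1 run and the 2 libraries of 2 runs had similar medians, −0.11 and −0.09 relative to naïve. The 1-run libraries were higher by more than 1 log2 unit at 49 narrow regions, or 1.25%, and lower by more than 1 at 34, or 0.864%, against 0.405% and 0.187% of the other regions.

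Variation between CFA rats was largest at chr16:64932377-64932617. There the naïve values were 5.59, 5.94 and 5.35, and the CFA values 1.35, 3.18, 5.11, 2.41, 1.87 and 3.48. Every CFA library was below the naïve range, CFA 3 only just, and the change of −2.73 ± 0.65 (SE) had a limma p of 0.00152, which missed the threshold. In the CCI table CCI 1 at 5.50 lay within the naïve range of 5.12 to 5.67, CCI 4 at 7.10 above it, and the other 4, at 2.82 to 3.84, below it. The other region of large CFA spread, chr11:808847-809036, owed it to CFA a at 1.35, with 3.33 to 4.59 in the rest.

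Narrow regions of level 6 or more had a median change of 0.34 after CCI, against −0.07 in the other regions of that level. Of the narrow regions, 28 in the CCI table had a mean of the group means of at least 6. A change above 0.5 was found at 13 of them, on 5 chromosomes. This level includes the CCI libraries, so a region raised after CCI could reach 6 through CCI itself. An example is chr1:56004189-56004401, with naïve values of 5.56 to 5.79. These 13 were picked out after their values were seen, and none was called at p below 0.001. Their median difference from the naïve mean was 0.09 in CCI 1 and 0.25 in CCI 5, but 1.07, 1.49, 0.92 and 1.31 in CCI 2, CCI 3, CCI 4 and CCI 6. The 13 regions were not all separate places, since chr16:21774778-21774933 and chr16:21775430-21775651 lay 0.497 kb apart. Some CCI libraries had to be high at regions picked for a raised mean. The same 4 libraries were high at regions on different chromosomes. Among them were chr17:89410736-89410986, with 6.36 to 6.78 in the naïve libraries, 6.39 in CCI 1, 6.80 in CCI 5 and 7.53 to 8.75 in the remaining CCI libraries, and chr16:22016246-22016446, with 6.77 and 6.76 in CCI 1 and CCI 5 and 7.70 to 8.08 in the rest. In the CFA table the median change of the 13 regions was 0.02, and there too the libraries differed. CFA 6 had a median difference of 0.39 from the naïve mean and was above it at 11 of the 13 regions. The medians were 0.12 in CFA a and 0.07 in CFA b, and −0.31, −0.19 and −0.15 in CFA 3, CFA 4 and CFA 5. Of the 4 higher CCI libraries, CCI 2 was sequenced in 2 runs and CCI 3, CCI 4 and CCI 6 in 1. Of the lower ones, CCI 1 was sequenced in 2 runs and CCI 5 in 1. A link to the number of runs was not tested.

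**Figure D5:**
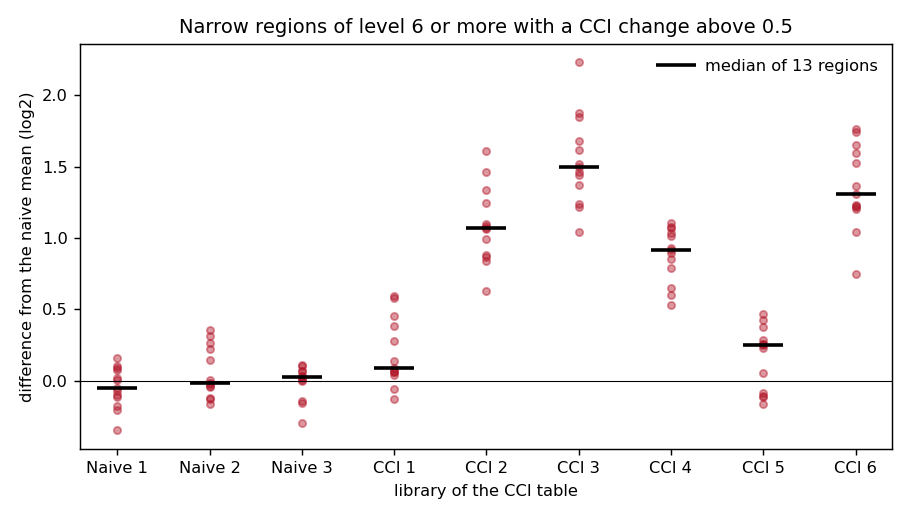
Log2 difference from the mean of the 3 naïve libraries (y axis) in each library of the CCI table (x axis) for the 13 narrow regions of level 6 or more with a CCI change above 0.5. Points are regions and black bars their medians, which are 0.09 and 0.25 in CCI 1 and CCI 5 and between 0.92 and 1.49 in the other 4 CCI libraries.

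The remaining high narrow regions went the other way or stayed close to naïve. A change below −0.5 was found at 5 of the 28 regions, where the medians by library were −0.20, −0.23, −0.61, −0.79, −0.65 and −1.41 in CCI 1 to CCI 6, and 10 regions lay between −0.5 and 0.5. Level 6 was reached by 84 narrow regions of the CFA table. Of these 81 changed by no more than 0.5 in either direction, and none was called.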

How the data were processed

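ATAC-seq of 15 libraries and RNA-seq of 2 CFA libraries were used, with groups taken from the sample labels. The authors aligned ATAC-seq reads to rn6 with Bowtie2, removed duplicates, shifted and extended insertion sites, downsampled, called peaks with MACS2 per sample and deposited log2 normalized coverage per consensus region, in 1 table per pain model. The columns of a table share nearly 1 distribution, with the same highest value and close medians, and the methods name no step that gives this. The authors deposited RNA-seq as raw counts per gene, 10520647 and 28825688 in all, used only to check the tissue. All per-sample columns could be mapped to a group (0 left out), but CFA a and CFA b could not be mapped to a single sample.

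Each table was fitted whole with limma 3.58.1 in R 4.3.3, two-sided, and single regions were also tested by exact permutation over 84 splits. The method was tested on simulated data. Named regions were the 4 lowest in p for each direction of each comparison, those called in both, the 3 highest and 2 lowest in naïve level, the 2 with the largest SD per model, and the narrowest. Distance classes, pairs of neighbours, ranges and the regions above level 6 were added after seeing the data. The members, rules and alternatives were chosen with earlier results of these data known. Alternatives were cyclic loess, centring, sample quality weights, a robust prior and an intensity trend in limma, filters on level, other thresholds and width limits, a replicate block, libraries of 2 runs and leaving out each library. Sequences and gene annotation of rn6 were not used here.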

Additional observations from a re-analysis of the deposited data

Results flagged for a closer look

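In groups of 6, a library was singled out if its gap to the nearest other library took up more of the group's range than Dixon's critical value allows. Of 58 groups examined, about 2.9 would be singled out by chance alone, roughly 1 in 20, and 4 were. The median over narrow regions was 4.37 (4.3713) in CCI 5 and 4.2701 to 4.2987 in the other CCI libraries, which places CCI 5 at the level of the naïve libraries. At chr17:51921761-51921926, CCI 4 had 4.67 while the other CCI libraries had 3.83 to 4.09. At chr16:22016246-22016446, CFA 6 had 7.62 and the other CFA libraries 6.81 to 7.08. At chr6:75810314-75810543, a region lost after CFA, CFA 4 had 3.48 and the others 2.64 to 2.82.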

How the results depend on the processing

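Counts of narrow regions at p below 0.001 are given in the order gained and lost after CCI, gained and lost after CFA, and were 26, 12, 27 and 15. They were 127, 94, 111 and 121 at p below 0.01 and 0 in each case at an adjusted limma p below 0.05. Where the number of regions tested changes, shares are given beside the counts, which were 0.661%, 0.305%, 0.686% and 0.381% at first. With a width limit of 200 bp the counts were 7, 5, 5 and 9, or 0.775%, 0.554%, 0.554% and 0.997%, where wider regions had 0.752%, 0.149%, 0.572% and 0.548%. With 300 bp they were 69, 20, 46 and 24, or 0.875%, 0.254%, 0.583% and 0.304%, where wider regions had 0.732%, 0.140%, 0.569% and 0.596%. With low regions removed they were 5, 6, 11 and 3, or 0.843%, 1.01%, 1.41% and 0.386%, where the others had 0.814%, 0.252%, 0.942% and 0.976%. The intensity trend left 4 lost after CCI and 15 and 3 after CFA, centring on narrow regions gave 4 lost after CCI and 41 gained after CFA, and sample quality weights gave 42 and 30 after CCI. Within libraries of 2 runs 8 were gained after CCI. Leaving out each library gave 16 to 54, 2 to 23, 17 to 34 and 11 to 23.

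The median change was −0.19 for CCI and, with the sign turned, 0.0561 for CFA when low regions were removed, −0.17 and −0.14 at 200 bp, and for CFA −0.0104 at 300 bp and −0.0393 after cyclic loess. Leaving out each library gave −0.14 to −0.11 for CCI and −0.07 to −0.05 for CFA. The median naïve level in the CCI and CFA tables was 4.16 and 4.36 after cyclic loess, 5.22 and 5.33 with low regions removed, 4.18 and 4.37 at 200 bp and 4.39 and 4.59 at 300 bp. Without single naïve libraries it was 4.31 to 4.32 and 4.50 to 4.52. The naïve SD was 0.20 and 0.23 with low regions removed, 0.33 at 200 bp in the CCI table, and 0.24 to 0.27 in both tables without single libraries. Causes of these differences were not tested. Under the alternatives to the 9 CCI and 10 CFA calls of named regions, 114 of 155 and 134 of 151 fits kept the call, and none turned the direction. Regions that the filter on level removed had no fit under it and are not counted there.

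A replicate block gave 18 gained and 2 lost after CCI. The correlation of deviations of same-numbered CCI and naïve libraries was −0.058, 0.073 and −0.029 over all regions. At narrow regions it was −0.115, 0.054 and −0.025. So few pairs cannot show whether the numbers pair samples, and the labels state no pairing. For CFA, no paired analysis was possible because the columns share fewer than 2 numbers with the naïve libraries.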
